A study of Bos taurus with 6 samples.

Results

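COL1A1 (ENSBTAG00000013103), COL1A2 (ENSBTAG00000013472), COL3A1 (ENSBTAG00000021466) and VIM (ENSBTAG00000018463) were examined as markers of stroma, the connective tissue part of the mammary gland. They were chosen by identifier for this role and not by a rule on their values, though earlier results of these data were known. They make up 4 of the 24579 genes counted. The filter on low counts kept 14724 genes, all 4 of these included. RNA was sequenced from mammary gland biopsies of 6 Holstein heifers at 21 days into the first lactation, with 1 library per heifer. The study describes a further cooled heifer, which was not analysed here. The 3 in utero heat stressed heifers (IUHT-H; 9196, 9203 and 9204) were carried by dams given shade alone over the last 6 to 7 weeks of gestation. The 3 in utero cooled heifers (IUCL-H; 9202, 9214 and 9223) were carried by dams given shade, fans and soakers over the same weeks. All 6 were born in 2014 and shared 1 management from birth to the lactation of 2016. By design the groups thus differ in what the dams received and not in any treatment of the heifers after birth. As a limit, the study names frequent culling of IUHT-H heifers, which left fewer animals to choose from.

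Type I collagen is a trimer built from the chains encoded by COL1A1 and COL1A2, and type III collagen is built from the chain encoded by COL3A1. These fibrillar collagens are secreted mainly by fibroblasts and form the fibers around the ducts and alveoli of the mammary gland. VIM encodes vimentin, an intermediate filament protein inside cells of mesenchymal origin, which include fibroblasts, endothelial cells and leukocytes. Milk-secreting epithelial cells build their intermediate filaments mainly from keratins.

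The IUHT-H libraries held 75754791 to 84969285 counts, and the IUCL-H libraries 91696849 to 101361294. Every IUHT-H library was smaller than every IUCL-H library, so library size and group cannot be told apart. The 10 genes with the most counts took 64.7% to 74.7% of a library. The 4 stroma genes together took 0.105% to 0.187% of all counts, and 0.381% to 0.577% of the counts outside those 10 genes. Their counts ran from 10102 for VIM in 9204 to 61563 for COL3A1 in 9202, which gives a counting error of 0.40% to 0.99% per value. Marker genes of the cell types in a biopsy could not be used to check the tissue or the stromal source, because 4 of 163 listed symbols were matched to an identifier. In a bulk biopsy, fewer cells of a type and less RNA per cell cannot be told apart.

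COL1A1, which encodes the main chain of type I collagen, was at 298.5, 358.2 and 469.6 CPM (counts scaled to library size with TMM factors) in IUHT-H 9196, 9203 and 9204. In IUCL-H it was at 489.7, 335.6 and 372.7 CPM in 9202, 9214 and 9223. The highest heifers were 9202 and 9204, 1 from each group, and the groups overlapped.

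COL1A2, which encodes the partner chain of COL1A1, was at 243.8, 321.6 and 374.0 CPM in IUHT-H while IUCL-H had 379.8, 265.9 and 268.5 CPM, with heifers in the same order as above. The heifers 9202 and 9204 were again the highest, and 9196 was the lowest for both type I chains.

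COL3A1, the chain of type III collagen, was at 417.8, 454.8 and 638.6 CPM in IUHT-H while IUCL-H had 612.0, 413.0 and 455.1 CPM. Here 9204 was the highest, 9202 followed, and the other 4 heifers lay between 413.0 and 455.1 CPM.

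VIM was at 194.1, 204.6 and 146.5 CPM in IUHT-H while IUCL-H had 225.4, 163.7 and 145.4 CPM. Heifer 9202 was the highest, as for COL1A1 and COL1A2, but 9204 was next to the lowest. The groups overlapped for all 4 genes, whereas they did not overlap for 6.06% of all genes tested.

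**Figure D1:**
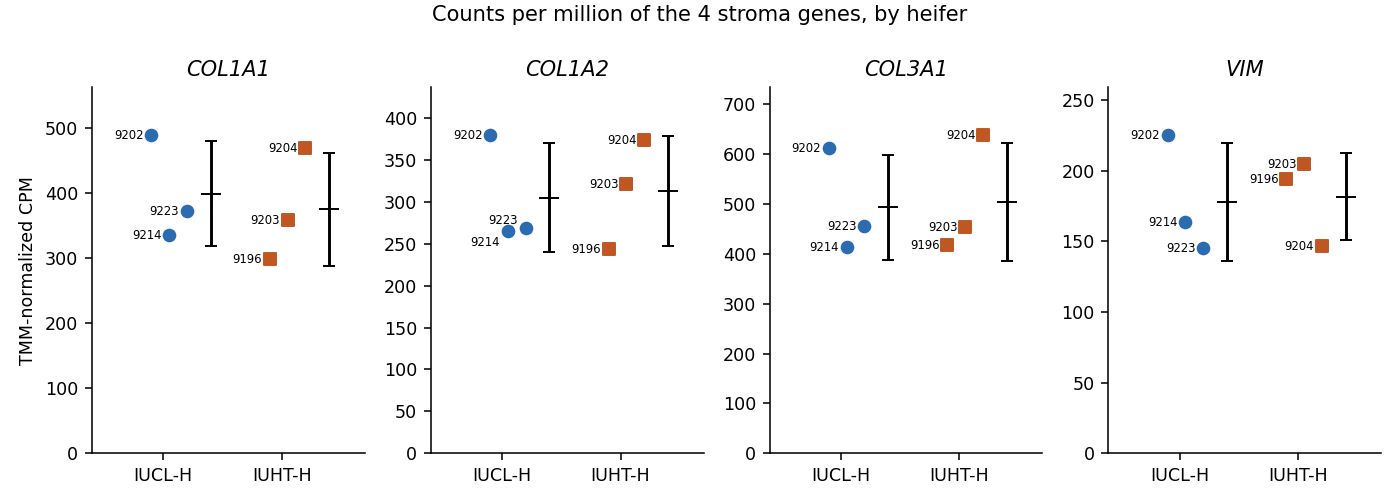
TMM-normalized CPM (vertical axes, from 0) of each gene in each heifer, with blue circles for IUCL-H, orange squares for IUHT-H, and bars for the mean ± SD of 3 heifers. Heifers 9202 and 9204 were highest for the 3 collagen genes, and 9204 lay at 146.5 CPM for VIM.

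The effect of the maternal treatment on each gene was compared with edgeR's quasi-likelihood test. None of the 4 genes passed the study's cut-off of 0.01 on the unadjusted test, which 63 of 14724 genes passed (0.428%). COL1A1 was at 375.4 ± 86.8 CPM in IUHT-H while IUCL-H had 399.3 ± 80.4 CPM (mean ± SD, n = 3), a log2 fold change of -0.09 ± 0.22 (SE). COL1A2 was at 313.1 ± 65.5 CPM in IUHT-H while IUCL-H had 304.7 ± 65.0 CPM, a log2 fold change of 0.04 ± 0.21. COL3A1 was at 503.7 ± 118.3 CPM in IUHT-H while IUCL-H had 493.3 ± 104.9 CPM, a log2 fold change of 0.03 ± 0.22. VIM was at 181.7 ± 31.0 CPM in IUHT-H while IUCL-H had 178.2 ± 41.9 CPM, a log2 fold change of 0.03 ± 0.21. The edgeR adjusted P was 0.999 for each of the 4.

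The 95% intervals give the changes that these 6 heifers did not exclude. For COL1A1 the interval ran from 0.663-fold to 1.33-fold, for COL1A2 from 0.730-fold to 1.45-fold, for COL3A1 from 0.714-fold to 1.46-fold and for VIM from 0.734-fold to 1.42-fold. The P-values therefore do not show that the groups are alike. Scaled by library size only, which moved the median of all genes by 0.13, the log2 fold changes were -0.02 for COL1A1, 0.11 for COL1A2, 0.09 for COL3A1 and 0.17 for VIM. At an adjusted P below 0.05, edgeR's quasi-likelihood test called 0 of the 14724 genes (0%), with 374 genes at an unadjusted P below 0.05. The robust quasi-likelihood fit called 0 genes at that adjusted cut-off, the exact test of edgeR 9, its likelihood ratio test 11 and DESeq2 16.

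**Figure D2:**
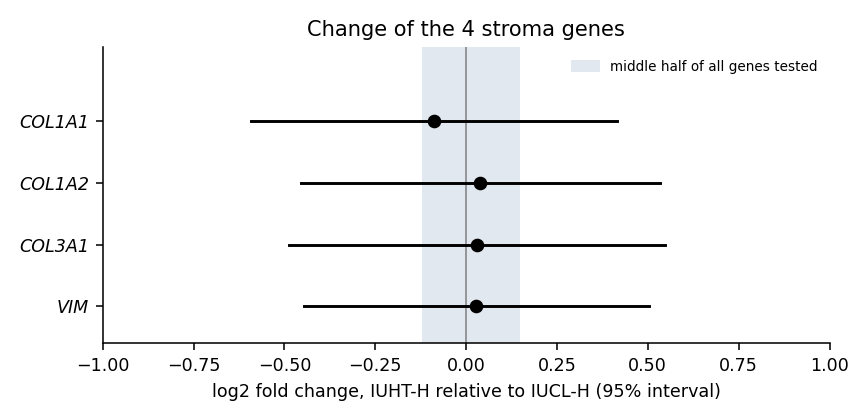
Log2 fold change of IUHT-H relative to IUCL-H (horizontal axis) for the 4 genes, with 95% intervals as lines and the interquartile range of all genes tested as the shaded band (-0.12 to 0.14). The 4 estimates lie within the band and each interval includes 0.

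Most of the spread of these genes was among heifers of the same group. The difference between groups held 3.53% of the sum of squares of log2 CPM for COL1A1, 0.570% for COL1A2, 0.260% for COL3A1 and 0.647% for VIM, where the median over all genes tested was 10.8%. The highest heifer exceeded the lowest by 1.64-fold for COL1A1, 1.56-fold for COL1A2, 1.55-fold for COL3A1 and 1.55-fold for VIM. The coefficient of variation over the 6 heifers was 19.6%, 19.0%, 20.1% and 18.4% in that order, beside a median of 14.3% over the 481 genes of at least 100 CPM.

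The collagen genes were high in the same heifers. Pearson's r between COL1A1 and COL3A1 was 0.96 (log2 CPM, n = 6, two-sided exact permutation P = 0.0097, adjusted P = 0.049 over 10 relations), with Spearman's rho of 0.89 (exact permutation P = 0.033, adjusted P = 0.17). Between the type I chains COL1A1 and COL1A2, r was 0.93 (exact permutation P = 0.0069, adjusted P = 0.049) and rho was 0.94 (exact permutation P = 0.017, adjusted P = 0.17). Between COL1A2 and COL3A1, r was 0.92 (exact permutation P = 0.017, adjusted P = 0.056) and rho was 0.83 (exact permutation P = 0.058, adjusted P = 0.19).

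With TMM scaling, these relations rest on heifers 9202 and 9204, the highest for all 3 collagens. Without them r was 0.81 for COL1A1 with COL3A1, 0.65 for COL1A1 with COL1A2 and 0.68 for COL1A2 with COL3A1, with exact permutation P of 0.29, 0.38 and 0.42 over 4 heifers. The smallest P that 4 heifers allow is 0.042. On leaving out 1 heifer at a time, the unadjusted exact permutation P stayed below 0.05 in all 6 cases for COL1A1 with COL3A1, in 4 for COL1A1 with COL1A2 and in 0 for COL1A2 with COL3A1, where r was 0.89 to 0.98. Scaled by library size only, 9203 lay above 9204 for all 3 collagens, for example at 419.5 against 381.2 CPM for COL1A1. With that scaling r was 0.96, 0.95 and 0.94 for the pairs in that order (exact permutation P = 0.0014, 0.0014 and 0.0028, n = 6). Leaving heifers out was not repeated with that scaling.

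With TMM scaling, VIM showed little relation with the collagens. Its r was 0.02 with COL1A1 (exact permutation P = 0.96), 0.21 with COL1A2 (exact permutation P = 0.67) and 0.03 with COL3A1 (exact permutation P = 0.91). Heifer 9204, at 638.6 CPM for COL3A1, had 146.5 CPM of VIM, and heifer 9196, at 417.8 CPM for COL3A1, had 194.1 CPM. Scaled by library size only, r with VIM was 0.61 for COL1A1, 0.72 for COL1A2 and 0.62 for COL3A1. Exact permutation P was 0.20, 0.17 and 0.24 in that order (n = 6). The value of r thus depended on the scaling. Count ratios of VIM to each collagen, which need no scaling, had a coefficient of variation of 22.1% to 25.4%. For ratios between collagens it was 5.73% to 7.26%.

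**Figure D3:**
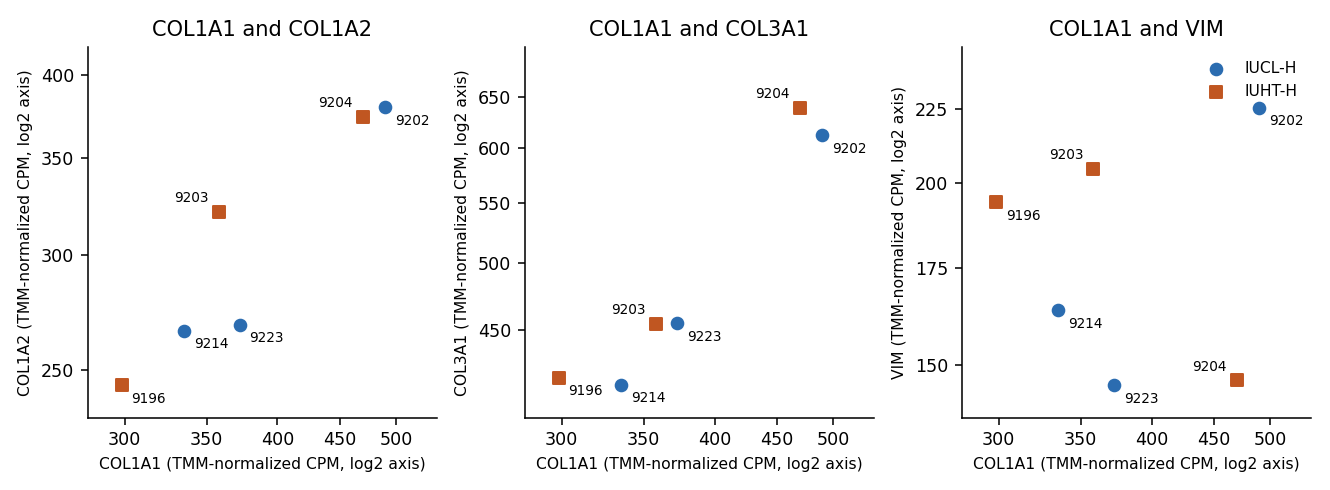
COL1A1 (horizontal axes) against COL1A2, COL3A1 and VIM (vertical axes), all as TMM-normalized CPM on log2 axes that do not start at 0, with 1 point per heifer. Heifers 9202 and 9204 stand at the upper right for both collagen pairs, while r between COL1A1 and VIM was 0.02 with the TMM scaling plotted and 0.61 with library size only.

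Among the 5925 other genes of at least 10 CPM, COL3A1 ranked 6th and COL1A2 17th by their r with COL1A1. By r with COL3A1, COL1A1 ranked 14th and COL1A2 31st. VIM ranked 3034th by its r with COL1A1. As a description of profiles, 31 of 5922 genes had r of at least 0.9 with the mean of the 4 genes, led by ENSBTAG00000001498 (r = 0.98, 16.8 CPM) and ENSBTAG00000011360 (r = 0.96, 16.4 CPM). With the mean of the 3 collagens alone, 37 genes did (0.625%), led by C14orf2 (r = 0.99, 17.1 CPM). The study describes C14orf2 as coding for a mitochondrial protein, not as a stroma marker. It lists this gene as differentially methylated between the treatments in both tissues, bull calf liver and heifer mammary gland. The name was available here through the study's gene tables. With VIM, 88 genes had r of at least 0.9 and 198 had r of -0.9 or lower.

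Ratios of counts within a library do not depend on scaling, and were compared after the levels had been seen. COL1A1 to COL1A2, the type I chains, was at 1.22, 1.11 and 1.26 in IUHT-H 9196, 9203 and 9204 and at 1.29, 1.26 and 1.39 in IUCL-H 9202, 9214 and 9223. The groups did not overlap, at 1.20 ± 0.0744 against 1.31 ± 0.0660 (mean ± SD, n = 3, exact permutation P = 0.1, adjusted P = 0.3 over 6 ratios). The nearest heifers were within counting error, at 1.2555 (95% interval 1.2351 to 1.2763) in 9204 and 1.2624 (1.2411 to 1.2840) in 9214.

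COL3A1 to COL1A1 was at 1.40, 1.27 and 1.36 in IUHT-H and at 1.25, 1.23 and 1.22 in IUCL-H. These groups did not overlap either, at 1.34 ± 0.0666 against 1.23 ± 0.0145 (n = 3, exact permutation P = 0.1, adjusted P = 0.3). A P of 0.1 is the smallest that 3 heifers against 3 allow, so neither difference could pass a threshold of 0.05. The nearest heifers, 9203 at 1.2698 (1.2517 to 1.2881) and 9202 at 1.2496 (1.2348 to 1.2645), again had overlapping counting intervals. The groups did not overlap for 1.08% of the 5925 ratios of COL1A1 to another gene of at least 10 CPM. Almost all of those genes followed COL1A1 less closely than COL3A1 and COL1A2, which ranked 6th and 17th by r. The percentage is therefore not a like-for-like background for ratios between collagens. Both of these ratios contain COL1A1 and are not independent, and COL3A1 to COL1A2 overlapped between groups (exact permutation P = 1, n = 3).

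VIM to each collagen overlapped between groups and varied more. The coefficient of variation over the 6 heifers was 22.1% to 25.4% for the ratios with VIM and 5.73% to 7.26% for the ratios between collagens. VIM to COL3A1 was lowest in 9204, at 0.229, and highest in 9196, at 0.465, both of them IUHT-H.

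**Figure D4:**
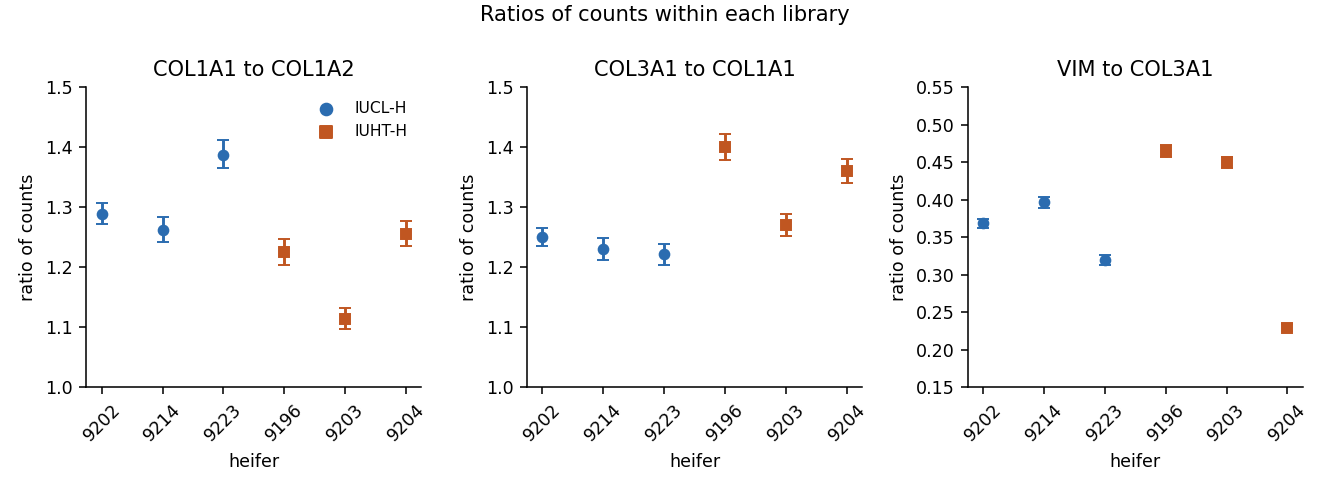
Ratio of counts (vertical axes, which do not start at 0) for COL1A1 to COL1A2, COL3A1 to COL1A1 and VIM to COL3A1 in each heifer, with 95% counting intervals. The groups do not overlap in the first and second panels, and IUHT-H spans 0.229 to 0.465 in the third.

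The share of counts in the 10 genes with the most counts was set beside the stroma genes, since it decides how much of a library is left for all others. It was 65.8%, 64.7% and 74.7% in IUHT-H 9196, 9203 and 9204, and 67.6%, 72.5% and 72.1% in IUCL-H 9202, 9214 and 9223. The groups overlapped, with means of 68.4% ± 5.48 and 70.7% ± 2.73 (n = 3, exact permutation P = 0.6). The heifers fell into a set of 3 at 64.7% to 67.6% and a set of 3 at 72.1% to 74.7%, with both groups in each set. Relations with the share were therefore also computed within the sets, with the mean of each set subtracted.

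VIM was at 194.1 to 225.4 CPM in the 3 heifers with the lower share. In the 3 with the higher share it was at 145.4 to 163.7 CPM, with no overlap. How many of all genes separated the sets in this way was not counted. The r of VIM with the share was -0.86 (n = 6, exact permutation P = 0.069, adjusted P = 0.17). Its rho was -0.66 (exact permutation P = 0.18, adjusted P = 0.44). Without 9203 and 9204, r was -0.81 (exact permutation P = 0.33, n = 4). Within the sets the direction turned, with r of 0.24 (exact permutation P = 0.61 over 36 arrangements, n = 6), and in the lower-share set VIM was highest in 9202, which had the highest share of the 3. The collagens overlapped between the sets, for example COL3A1 at 417.8 to 612.0 CPM and at 413.0 to 638.6 CPM. Their r with the share was 0.35 for COL1A1, 0.12 for COL1A2 and 0.31 for COL3A1, with exact permutation P of 0.46, 0.82 and 0.46. Within the sets it was 0.78, 0.72 and 0.88 (exact permutation P = 0.17, 0.25 and 0.11, adjusted P of at least 0.28 over 5 relations, n = 6).

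The TMM factor itself had r of -0.99 with the share. Over 5926 genes of at least 10 CPM the median r with the share was 0.30, and 3.49% of genes had a lower r than VIM. That percentage counts the negative side only. With TMM scaling, 134 genes had r between -1 and -0.9 and 237 between -0.9 and -0.8. On the positive side, 563 genes had r between 0.8 and 0.9 and 368 between 0.9 and 1. Relations of that strength were thus more frequent with positive than with negative sign. Scaled by library size only, the median over genes was -0.84 and 13.3% of genes had a lower r than VIM. With that scaling r was -0.95 for VIM, -0.46 for COL1A1, -0.60 for COL1A2 and -0.48 for COL3A1. The direction thus turned with this scaling for the collagens and not for VIM. The ratio of VIM to the geometric mean of the collagens, which needs no scaling, had r of -0.83 with the share (exact permutation P = 0.029, adjusted P = 0.19 over 13 relations, n = 6), and of -0.76 within the sets (exact permutation P = 0.17). For this ratio rho was -0.77 (exact permutation P = 0.10), and r without 9203 and 9204 was -0.71 (exact permutation P = 0.33, n = 4). The relation of this ratio with the share was not planned. What part the share has in the VIM values was not tested.

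**Figure D5:**
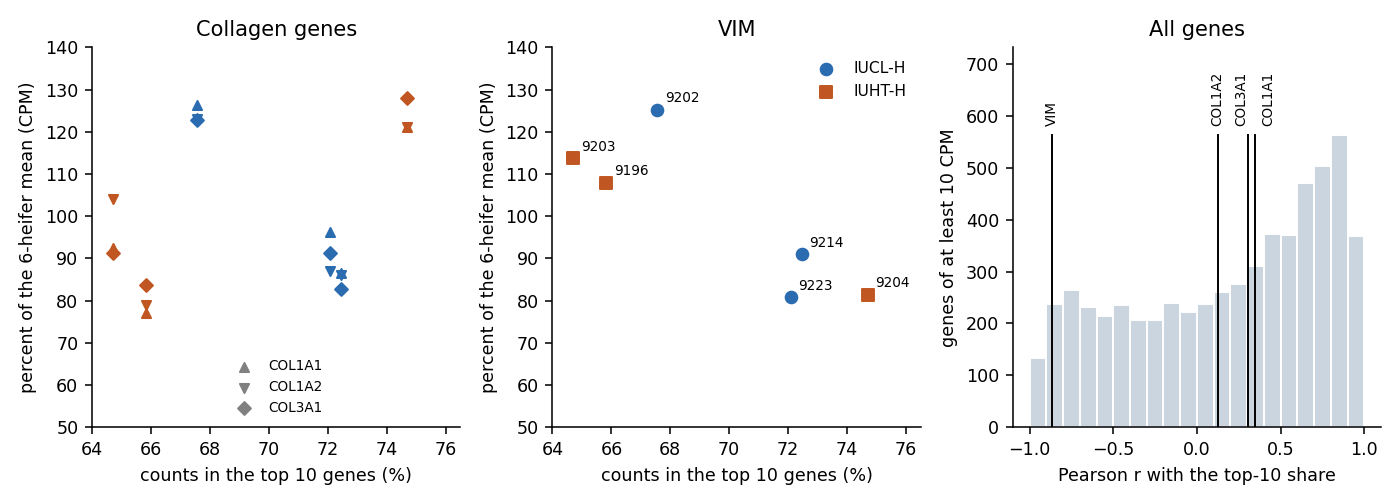
Left and middle, CPM as a percent of the 6-heifer mean (vertical axes, which do not start at 0) against the percent of counts in the 10 genes with the most counts, for the collagens and for VIM, with IUCL-H in blue and IUHT-H in orange. Right, number of genes by r with that share, with lines at VIM (-0.86) and the collagens (0.12 to 0.35).

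Of the genes on the matrix and cell type lists, 4 could be matched, through names in the study's gene tables. None passed the cut-off of 0.01, which 0.428% of all genes tested passed, so 4 genes are too few to read this count. MRC2, a receptor that takes up collagen for breakdown, was at 27.7, 21.3 and 22.8 CPM in IUHT-H while IUCL-H had 24.0, 14.3 and 26.1 CPM, a log2 fold change of 0.16 ± 0.22 (SE; edgeR adjusted P = 0.999). LAMA4, a laminin chain of vessel basement membrane, had a log2 fold change of -0.06 ± 0.15, NOTCH3, a receptor of pericytes and vascular smooth muscle, 0.10 ± 0.13, and CLDN3, an epithelial tight junction protein, -0.17 ± 0.17 (edgeR adjusted P = 0.999 each). LAMA4 turned to 0.077 when scaled by library size only.

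CLDN3 was at 72.2, 62.4 and 85.2 CPM in IUHT-H 9196, 9203 and 9204 and at 66.5, 86.0 and 94.1 CPM in IUCL-H 9202, 9214 and 9223. It was low where VIM was high, with r of -0.93 (n = 6, exact permutation P = 0.022, adjusted P = 0.19 over 13 relations), and this r was 0.064 when both were scaled by library size only. VIM with NOTCH3 had r of 0.70 (exact permutation P = 0.13). The collagen mean had r of -0.53 with NOTCH3 (exact permutation P = 0.27) and -0.15 with CLDN3 (exact permutation P = 0.72). The share of counts in the genes with the most counts had r of 0.88 with CLDN3, -0.93 with NOTCH3 and -0.86 with VIM. With MRC2 and LAMA4 its r was -0.31 and -0.16. Whether VIM is related to CLDN3 or NOTCH3 apart from this share was not tested.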

How the data were processed

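The authors deposited raw counts of reads per gene, 1 file per heifer, with Ensembl identifiers. The submitters' processing notes name FastQC, TopHat2 2.0.13, HTSeq and the build UMD3.1, while the study's methods name another assembly, so no coordinates are given. Whether separate extractions or sequencing batches were used is not given in the sources used here. Gene names came with the chosen identifiers or from the study's gene tables.

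Genes were filtered with filterByExpr, scaled by TMM and compared with edgeR 4.0.16 (glmQLFit and glmQLFTest, R 4.3.3) over all 6 heifers without covariates, with Benjamini-Hochberg adjustment over all 14724 genes. Each heifer is 1 replicate. Correlations used log2 CPM with a prior count of 2 and exact permutation over 720 pairings. Counting intervals cover counting error only. DESeq2 1.42.0 and other edgeR tests, scalings and filters were alternatives. The scripts were tested on simulated data.

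The genes and lists were chosen with earlier results of these data known. Named genes were the 4 stroma genes, list genes that could be matched, and leading genes by likeness to the mean profile of the 4, of which only the first are named. C14orf2, which leads by likeness to the mean of the 3 collagens, was named outside this rule. Because 2.45% of list symbols were matched, below the 80% required, counts over the lists are not given. Pairwise count ratios, relations within the share sets, and adjusted calls by the other tools were added after the data were seen. The 13 relations of the VIM to collagen ratio, of library totals and of matched list genes were not planned either. They include VIM with CLDN3 and with NOTCH3.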

Additional observations from a re-analysis of the deposited data

How the results depend on the processing

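The number of genes at P ≤ 0.01 was 63, and it was 108 with edgeR's exact test, 112 with its likelihood ratio test and 124 with DESeq2; without 1 heifer it was 38 to 246, with 246 without 9202, 225 without 9204 and 38 without 9214. Of those calls 66.7% were higher in IUHT-H, and 81.8% were with scaling by library size only, which moved the median log2 fold change of all genes by 0.13. Without 1 heifer, log2 fold changes ran from -0.28 to 0.084 for COL1A1, -0.11 to 0.23 for COL1A2, -0.18 to 0.22 for COL3A1, -0.10 to 0.23 for VIM, -0.069 to 0.32 for MRC2 and -0.20 to 0.028 for LAMA4, so all of these turned in sign, while NOTCH3 (0.0049 to 0.21) and CLDN3 (-0.30 to -0.058) did not. With library size only, LAMA4 turned to 0.077, MRC2 was at 0.28, NOTCH3 at 0.25 and CLDN3 at -0.040. Without 1 heifer, r ran from 0.89 to 0.97 for COL1A1 with COL1A2, 0.94 to 0.98 for COL1A1 with COL3A1, 0.89 to 0.98 for COL1A2 with COL3A1, -0.64 to 0.40 for COL1A1 with VIM, -0.24 to 0.67 for COL1A2 with VIM and -0.51 to 0.59 for COL3A1 with VIM. With the share it ran from 0.03 to 0.66 for COL1A1, -0.31 to 0.33 for COL1A2, -0.19 to 0.55 for COL3A1 and -0.95 to -0.81 for VIM. Without the 2 heifers farthest from the median, r was 0.65, 0.81 and 0.68 for the collagen pairs in that order, -0.47 for COL1A1 with VIM, -0.085 for COL3A1 with VIM, and -0.0099, -0.17 and -0.30 for the share with COL1A1, COL1A2 and COL3A1. With library size only, the share had r of -0.46, -0.60 and -0.48 with the collagens and -0.95 with VIM (exact permutation P = 0.031), VIM with CLDN3 had r of 0.064, and VIM had r of 0.61, 0.72 and 0.62 with the collagens. With the means of the lower-share and higher-share heifers subtracted, chosen after seeing the data, r of VIM with the share turned to 0.24. The cause was not tested. Alternatives over the gene lists were not run, because the symbols could not be matched. No paired analysis was possible because the groups hold different heifers, whose identity numbers pair no samples.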
